A study of Mus musculus with 27 samples.

Results

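Markers of lymphocytes and cytotoxic cells were followed in mouse tibialis anterior muscle after volumetric muscle loss (VML), a surgical injury in which a block of muscle too large to regrow is removed. The 10 genes, taken by symbol from a table of 54532 genes, were Cd3e, Cd3g, Cd4 and Cd8a for T cells, Cd79a and Ms4a1 for B cells, and Nkg7, Gzma, Gzmb and Il2rb for natural killer (NK) and cytotoxic T cells. Each symbol matched 1 gene. The muscles came from C57BL/6 male mice aged 8 weeks, without genetic modification in the labels, of which 40% of the tibialis anterior had been excised in all but the uninjured group. Bulk poly(A) RNA was measured in 27 samples, of which 5 were uninjured and 5, 6, 6 and 5 were collected at 3, 7, 14 and 21 days after VML. Whether both legs or 1 leg were injured is stated differently in the sources, and nothing in the labels says whether samples of 1 group came from separate animals, so p-values measure the spread between these samples. The values are FPKM (fragments per kilobase of gene, scaled to library size), and FPKM multiplied by gene length gave back whole reads for 100% of the values.

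T cells recognise antigen through a receptor whose signal is carried by the CD3 chains, and the co-receptors CD4 and CD8 divide them into helper and killer classes. B cells carry an antibody receptor that signals through CD79 chains and is accompanied by CD20, the product of Ms4a1. Killer T cells and NK cells store granzymes in granules together with NKG7, and respond to interleukin-2 and interleukin-15 through the shared receptor chain encoded by Il2rb. In injured muscle, lymphocytes are known to arrive after the first wave of neutrophils and macrophages, and regulatory T cells are known for their part in repair.

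The 10 genes lie on 7 chromosomes of the mouse genome, at positions that matched GENCODE M21 on GRCm38 for each of them. Cd3e (ENSMUSG00000032093, chr9:44998740-45009627) and Cd3g (ENSMUSG00000002033, chr9:44969572-44980431) are neighbours on the minus strand of chromosome 9. Cd4 (ENSMUSG00000023274, chr6:124864692-124888221, minus strand) and Cd8a (ENSMUSG00000053977, chr6:71373427-71379173, plus strand) share chromosome 6. Cd79a (ENSMUSG00000003379, chr7:24897381-24902197) and Nkg7 (ENSMUSG00000004612, chr7:43437073-43438249) lie on the plus strand of chromosome 7. Ms4a1 (ENSMUSG00000024673, chr19:11249675-11266241), Gzma (ENSMUSG00000023132, chr13:113093825-113100981), Gzmb (ENSMUSG00000015437, chr14:56258838-56262260) and Il2rb (ENSMUSG00000068227, chr15:78479256-78495271) are each on the minus strand. The libraries do not record strand, so reads of Cd3e cannot be told from those of Gm48719 and Gm48720, which overlap it, nor reads of Ms4a1 from those of 4930526L06Rik. The other 8 members overlap no annotated gene.

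The 250 bases before the RefSeq start (GRCm38.p6) are shown for 3 cytotoxic genes whose levels varied together over the 27 libraries, Gzma, Gzmb and Nkg7, and for Cd3e, whose correlation with each of them was between -0.101 and -0.0263. All are read on the strand of the gene, with matches to the motifs named below in capitals. Gzma lies at chr13:113100982-113101231 on the minus strand, Gzmb at chr14:56262335-56262584 on the minus strand, Nkg7 at chr7:43436888-43437137 on the plus strand and Cd3e at chr9:45009612-45009861 on the minus strand.
Gzma: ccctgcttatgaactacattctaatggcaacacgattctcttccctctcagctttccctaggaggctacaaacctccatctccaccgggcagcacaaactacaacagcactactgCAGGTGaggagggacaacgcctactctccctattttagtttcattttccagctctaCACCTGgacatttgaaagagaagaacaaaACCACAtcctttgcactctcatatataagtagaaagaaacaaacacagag
Gzmb: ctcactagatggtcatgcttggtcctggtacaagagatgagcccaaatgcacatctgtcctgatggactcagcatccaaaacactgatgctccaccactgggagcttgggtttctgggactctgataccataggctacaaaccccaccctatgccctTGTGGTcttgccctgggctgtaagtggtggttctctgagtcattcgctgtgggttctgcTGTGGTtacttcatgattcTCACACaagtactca
Nkg7: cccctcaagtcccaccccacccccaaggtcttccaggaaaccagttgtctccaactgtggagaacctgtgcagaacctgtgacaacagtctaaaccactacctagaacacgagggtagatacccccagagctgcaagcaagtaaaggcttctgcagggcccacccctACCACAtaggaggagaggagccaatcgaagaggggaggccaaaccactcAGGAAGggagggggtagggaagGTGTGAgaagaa
Cd3e: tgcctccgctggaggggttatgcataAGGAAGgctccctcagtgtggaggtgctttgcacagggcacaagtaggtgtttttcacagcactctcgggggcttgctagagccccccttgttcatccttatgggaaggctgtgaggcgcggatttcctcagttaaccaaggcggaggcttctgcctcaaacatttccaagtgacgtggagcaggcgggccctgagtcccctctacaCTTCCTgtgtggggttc
The motifs, searched on both strands, were the RUNX core TGTGGT, the ETS core AGGAAG, the T-box core TCACAC, the E-box CAGGTG and the EBF palindrome (TCCC, any 2 bases, GGGA). A RUNX match was present in the windows of Gzma, Gzmb (2 matches) and Nkg7 and in 14.0% of all 32536 promoter windows. T-box matches were present in Gzmb and Nkg7, against 12.1% of all windows. The ETS core, found in 29.6% of windows, occurred 2 times in Cd3e and 1 time each in Nkg7 and Cd79a. The E-box, found in 17.3% of windows, occurred 2 times each in Gzma and Cd3g and 1 time in Cd79a. No EBF match (0.787% of windows) was found in the 7 members that had an entry, and Cd8a held none of the 5 motifs. A match of these short words is a description of the letters only. Cd4, Ms4a1 and Il2rb had no entry.

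All 10 members were sparsely expressed. Of the 270 values (10 genes in 27 libraries), 71 were 0, 113 reached 10 reads and 5 reached 100 reads, out of 14376395 to 24436763 reads per library. In the uninjured muscles 27 of 50 values were 0 and 7 reached 10 reads. At day 3, 26 of 50 values reached 10 reads, and at day 7 and day 14 the count was 31 and 36 of 60, before it stood at 13 of 50 at day 21. Summed over the members, the uninjured libraries held 21 to 55 reads. At day 3 the sums were 111, 67, 134, 150 and 533 reads (replicates 1 to 5). Day 7 sums ranged from 70 to 573, day 14 sums from 72 to 273 and day 21 sums from 46 to 125. In reads, without a correction for depth, each library of days 3 to 14 was above all uninjured libraries, and the lowest of day 21 was not. As summed FPKM, the uninjured libraries lay between 0.874 and 1.96. Day 7 replicates 3 and 6 (1.67 and 1.42) were inside that range, and all other libraries of days 3 to 21 were above it (2.09 or more). In bulk muscle, a lower number of cells of a type and less RNA per cell cannot be told apart.

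**Figure D1:**
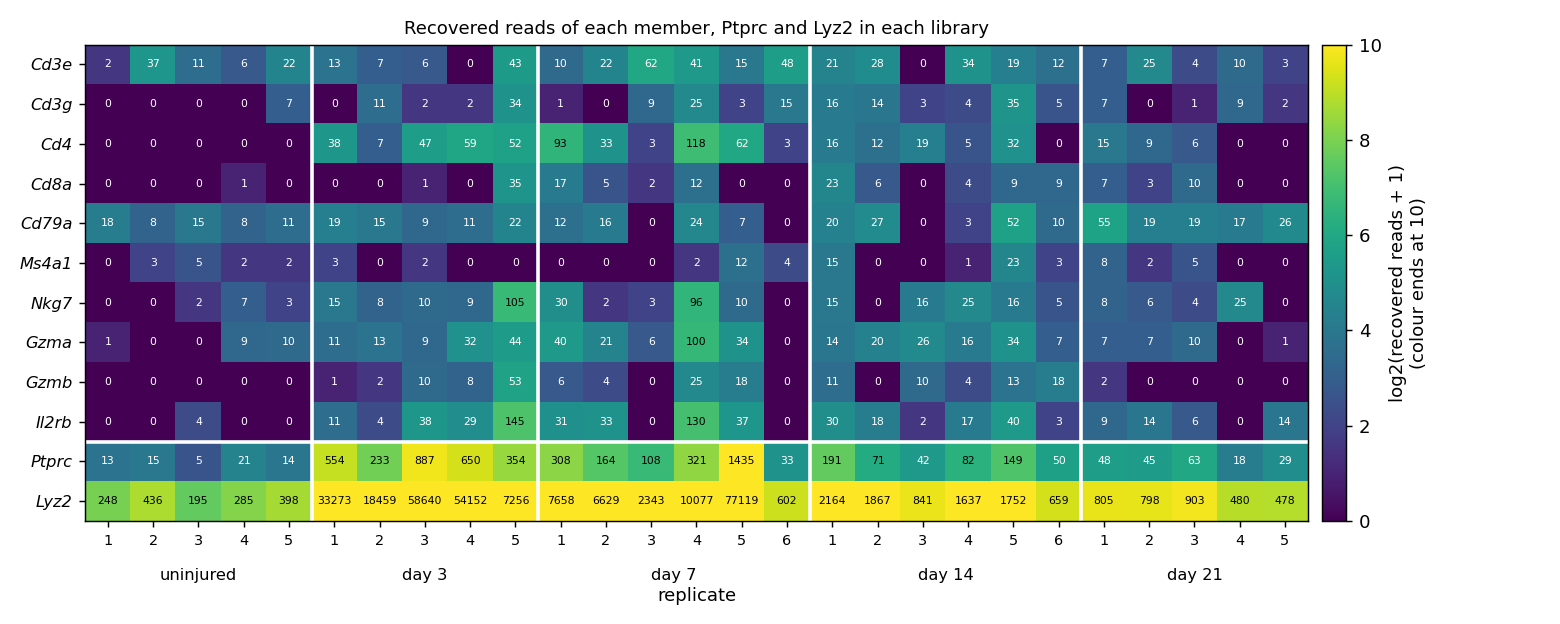
Recovered reads of the 10 members, of the pan-leukocyte gene Ptprc and of the macrophage gene Lyz2 (rows) in each of the 27 libraries (columns, by group and replicate). Colour is log2(reads + 1), with the number of reads printed in each cell. Cd4 and Gzmb were at 0 in all 5 uninjured libraries, and day 3 replicate 5 and day 7 replicate 4 held the most reads of the members.

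Some libraries stood apart from their group in genes of other leukocytes. Lyz2, a lysozyme gene of macrophages and neutrophils, had 195 to 436 reads in uninjured muscle and 18459 to 58640 reads in day 3 replicates 1 to 4, but 7256 in day 3 replicate 5. At day 7 it had 6629 to 10077 reads in replicates 1, 2 and 4, but 77119 in replicate 5, 2343 in replicate 3 and 602 in replicate 6. Day 3 replicate 5 was thus nearer to the day 7 level and day 7 replicate 5 to the day 3 level of this gene. Day 3 values without replicate 5 are given for Cd3g, Cd8a, Gzmb, Il2rb and Nkg7 and for some of the context genes highest in that library. Fits without both libraries are given for the member calls at day 3 and for Cd3e. All 6 genes of the macrophage list were higher at day 3 and at day 7, and 3 of 6 at day 14. The defining markers of lymph node stroma were low, with Glycam1 at 0 in all 27 libraries and Cxcl13 and Madcam1 at mean FPKM of 0.0103 to 0.216 in every group. Lymph node in the dissected tissue was not tested further.

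Of the 10 members, 9 passed the filter of at least 10 reads in at least 5 libraries and entered a limma fit of log2(FPKM + 0.1) over 16362 genes, while Ms4a1 did not. At day 3, Cd4, Gzmb and Il2rb rose (3 of 9), where 41.4% of all tested genes were called in either direction and 23.8% were called higher and 17.5% lower. At day 7, 1 of 9 was called, Cd4 (29% of all genes in either direction, 16.4% higher and 12.5% lower). At day 14, 2 of 9 were called, Gzma and Gzmb (21.0% in either direction, 11.2% higher and 9.82% lower). At day 21 none was called (3.58% in either direction, 2.34% higher and 1.24% lower) by limma, and none had an unadjusted p under 0.05 in that fit. No member was called lower at any day on the deposited scale, while quantile normalization called Cd79a lower at day 7 (log2 fold change -1.64, limma adjusted p = 0.0477). On the deposited scale, the shares called were thus near or below the share of all genes called in either direction. Beside the share called higher, they were above it at days 3 and 14 and below it at days 7 and 21. These shares rest on counts of 0 to 3 genes. The median log2 fold change of the 9 members was 1.83, 1.10, 1.32 and 0.58 at days 3, 7, 14 and 21, beside 0.06, 0.09, 0.06 and 0.03 over all tested genes. With Cd4 and Gzmb set to the bounds given below, the medians of the members were 1.83, 1.10 and 1.35 at days 3, 7 and 14. At day 21 the mean of Gzmb was below the uninjured floor (0.547-fold), so no such median is given. A median over members that passed through their injured libraries is a description only.

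**Figure D2:**
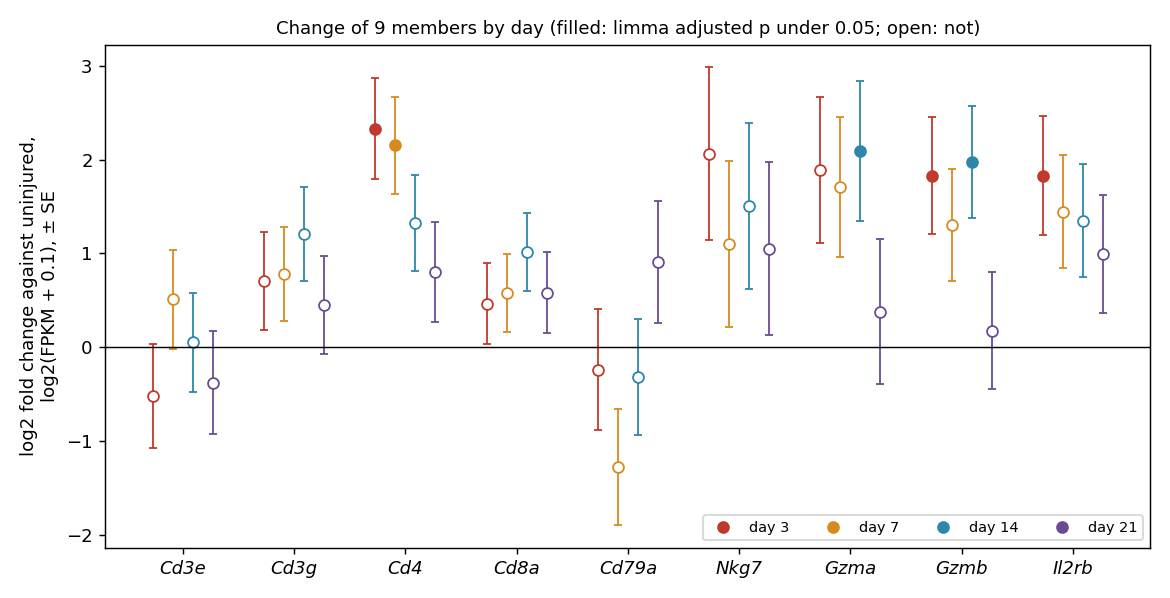
Log2 fold change of 9 members against uninjured muscle at each day, on the log2(FPKM + 0.1) scale, with standard errors. Filled points had an adjusted p under 0.05 (limma). The 6 filled points belong to Cd4 at days 3 and 7, Gzmb at days 3 and 14, Il2rb at day 3 and Gzma at day 14, and every point of Cd3e and Cd79a is open.

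Among the T cell genes, Cd4 was called at days 3 and 7, and Cd3e, Cd3g and Cd8a at no day. Cd4, the helper co-receptor, had no read in any of the 5 uninjured libraries, which allows an FPKM of up to 0.0432 to 0.0634 in a single library (3 reads). At day 3 it had 38, 7, 47, 59 and 52 reads, and at day 7 between 3 and 118 (93, 33, 3, 118, 62 and 3). All libraries of both days lay above all uninjured libraries. The mean FPKM was 0.450 ± 0.212 (SD, n = 5) at day 3 and 0.510 ± 0.486 (n = 6) at day 7. Against a floor of 3 reads over the uninjured group, Cd4 was at least 41.8-fold higher at day 3 and at least 47.5-fold higher at day 7. The fitted log2 fold change was 2.33 ± 0.54 (SE, limma adjusted p = 0.00114) at day 3. For day 7 it was 2.15 ± 0.51 (0.00314, limma adjusted p), and the exact permutation test of mean FPKM gave its smallest possible p at both days (0.00794 and 0.00433). At day 14 Cd4 had 0 to 32 reads with 5 of 6 libraries above 0 (0.188 ± 0.162, at least 17.5-fold, adjusted p = 0.067), and at day 21 it had 15, 9, 6, 0 and 0 reads (0.0954 ± 0.0989, at least 8.87-fold, adjusted p = 0.416). Cd4 was called at days 3 and 7 with any single library left out, and at day 14 it passed the threshold without day 7 replicate 3, day 7 replicate 4 or day 14 replicate 6 (limma adjusted p = 0.0473, 0.0495 and 0.0297). The low values at day 7 were those of replicates 3 and 6, the libraries with the fewest Lyz2 reads of that day. Without them, Cd4 was lower at day 14 than at day 7 (log2 fold change -1.61 ± 0.44, limma adjusted p = 0.0423). With all libraries this difference was -0.83 ± 0.49 and was not called (limma adjusted p = 0.511). The libraries left out were chosen after seeing the data and held the lowest Cd4 values of day 7, so that fit cannot test the difference.

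Cd3e and Cd3g encode the epsilon and gamma chains of the CD3 complex. Cd3e had 2, 37, 11, 6 and 22 reads in uninjured muscle, and 13, 7, 6, 0 and 43 at day 3. Its range at day 7 was 10 to 62 (median FPKM 0.342) and at day 14 0 to 34 (median FPKM 0.261), and day 21 gave 7, 25, 4, 10 and 3 reads. The groups overlapped at every day, and no comparison was called (adjusted p = 0.484, 0.499, 0.959 and 0.749 at days 3, 7, 14 and 21). The highest Cd3e values, 62 and 48 reads, were in day 7 replicates 3 and 6, which had 3 reads of Cd4 each and 2 and 0 reads of Cd8a. Without day 3 replicate 5 and day 7 replicate 5, Cd3e was higher at day 7 than at day 3 (log2 fold change 1.62 ± 0.54, limma adjusted p = 0.0478). With all libraries this difference was 1.03 ± 0.53 and was not called (limma adjusted p = 0.37). The 2 libraries left out held the highest Cd3e value of day 3 (43 reads) and a low one of day 7 (15 reads). Leaving them out thus widens the difference by itself, and the value is a description only.

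Cd3g had reads in 1 of 5 uninjured libraries (7 reads), in 4 of 5 at day 3 (11, 2, 2 and 34) and in 6 of 6 at day 14 (3 to 35 reads). Without day 3 replicate 5, which held 34 of the 49 reads of that day, its mean FPKM at day 3 went from 0.149 ± 0.207 (n = 5) to 0.0639 ± 0.0953 (n = 4). The mean FPKM was 0.0293 ± 0.0654 (n = 5) in uninjured muscle and 0.222 ± 0.213 (n = 6) at day 14 (log2 fold change 1.21 ± 0.50, adjusted p = 0.0841), where the exact permutation test gave an unadjusted p of 0.0346. The third CD3 gene, Cd3d, was at 0 in all 5 uninjured libraries and in 4 of 6 at day 7. The 5 uninjured libraries therefore held 78 reads of Cd3e, 7 of Cd3g and none of Cd3d. Whether the overlapping genes supply reads counted for Cd3e was not tested.

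Cd8a, the killer T cell co-receptor, had 1 read in the 5 uninjured libraries together. At day 3 it was at 0, 0, 1, 0 and 35 reads, so that 1 library, replicate 5, held nearly all of its reads. Without that library the mean FPKM at day 3 was 0.00261 ± 0.00521 (n = 4), and the log2 fold change went from 0.46 to -0.02. Day 7 gave 0 to 17 reads and day 21 gave 7, 3, 10, 0 and 0. Day 14 gave 0 to 23, with 5 of 6 libraries above the highest uninjured value. The difference at day 14 was 1.02 ± 0.42 on the log2 scale (limma adjusted p = 0.0801, exact permutation p = 0.026 unadjusted). It passed the threshold without day 3 replicate 5 (adjusted p = 0.0304) or without day 14 replicate 3 (adjusted p = 0.0349).

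**Figure D3:**
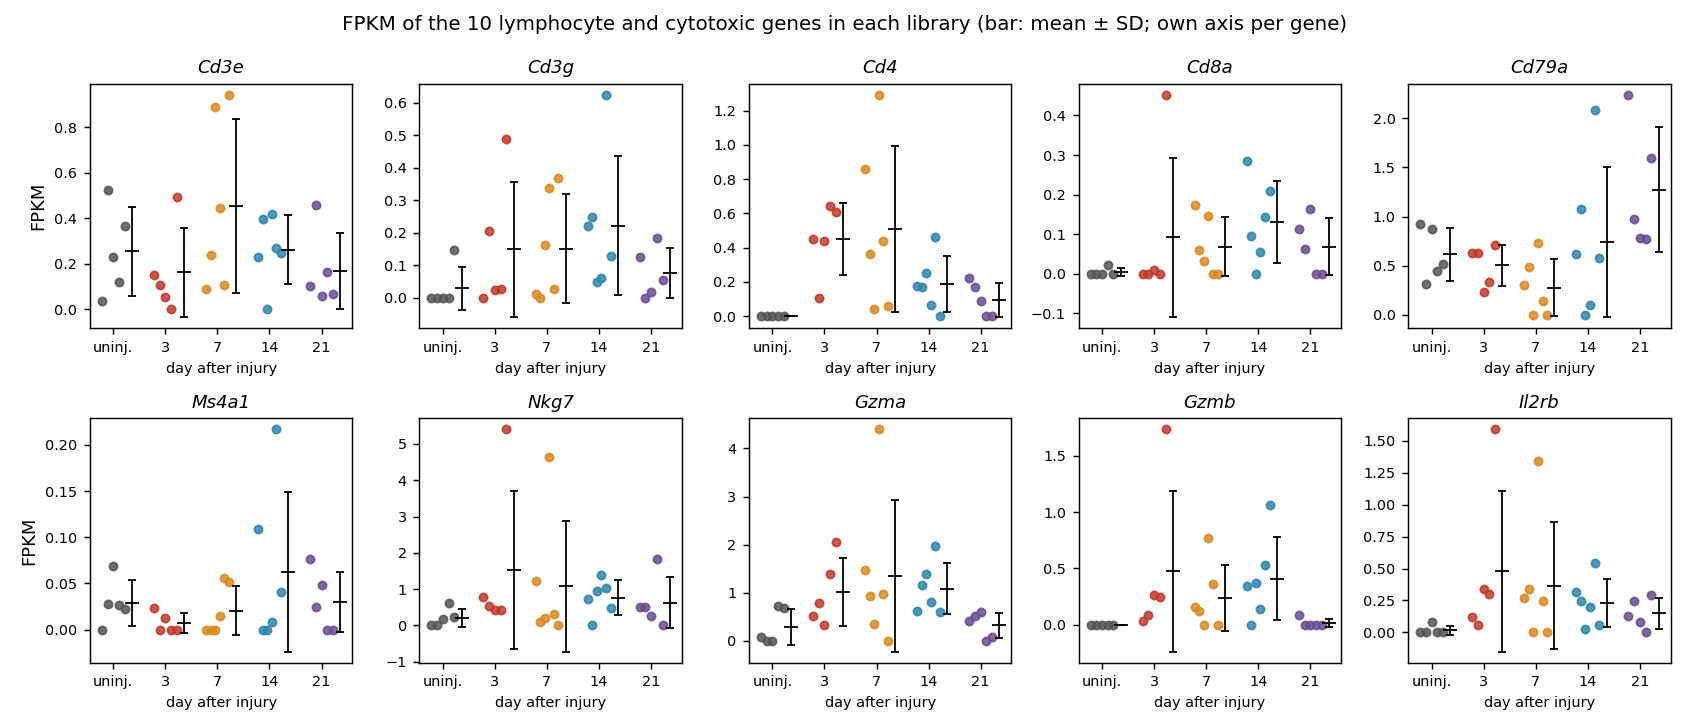
FPKM of the 10 members in each library (points, by group on the horizontal axis), with the mean and SD of the group as a bar. Each gene has its own vertical axis. All Cd4 values at days 3 and 7 lie above 0, and single high libraries set much of the SD of Nkg7, Gzmb and Il2rb at day 3.

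Of the B cell genes, Cd79a was not called at any day and Ms4a1 was below the filter. Cd79a, a signalling chain of the B cell receptor, was the member with the highest mean FPKM in uninjured muscle (0.617 ± 0.270, n = 5), with 18, 8, 15, 8 and 11 reads. It had 19, 15, 9, 11 and 22 reads at day 3 and 55, 19, 19, 17 and 26 at day 21. At day 7 it ranged from 0 to 24 reads, with 4 of 6 libraries below the lowest uninjured value, and at day 14 from 0 to 52. The mean FPKM was 0.277 ± 0.291 at day 7 (log2 fold change -1.28 ± 0.62, limma adjusted p = 0.121) and 1.27 ± 0.635 at day 21 (0.91 ± 0.65, adjusted p = 0.45). The order of the group means was day 21, day 14, uninjured, day 3 and day 7, and no neighbours in that order, nor day 7 or day 21 against uninjured, differed beyond their spread (exact permutation p = 0.0635 for day 21 and 0.0779 for day 7 against uninjured). The ends of that order, day 21 and day 7, were not compared by a test. Every day 21 value (FPKM 0.7765 or more) lay above every day 7 value (0.7279 or less), a pair picked from the order seen. Ms4a1, which encodes CD20, had 12 reads in all uninjured libraries together and at most 23 reads in any library (day 14 replicate 5). It was at 0 in 11 of 27 libraries, and the exact permutation p against uninjured was 0.103, 0.623, 0.528 and 0.968 at days 3, 7, 14 and 21.

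Among the cytotoxic genes, Gzmb was, like Cd4, at 0 in all 5 uninjured libraries, which allows an FPKM of up to 0.121 to 0.178 in a single one. Gzmb encodes granzyme B, a protease of killer cell granules. It had 1, 2, 10, 8 and 53 reads at day 3, and between 0 and 25 at day 7. Day 14 gave 0 to 18 reads, and day 21 gave 2, 0, 0, 0 and 0. All day 3 libraries lay above the uninjured ones, 4 of 6 did at day 7 and 5 of 6 at day 14. Over the group floor, Gzmb was at least 15.6-fold, 7.78-fold and 13.5-fold higher at days 3, 7 and 14, with mean FPKM of 0.472 ± 0.713 (n = 5), 0.235 ± 0.293 (n = 6) and 0.408 ± 0.371 (n = 6). Without day 3 replicate 5, which held 53 of the 74 reads of that day, the day 3 bound was 5.19-fold, and without day 7 replicate 4 the day 7 bound was 4.24-fold. The log2 fold change was 1.83 ± 0.63 for day 3 (limma adjusted p = 0.0207), and for day 14 it was 1.98 ± 0.60 (0.0208). Without day 3 replicate 5 the day 3 value was 1.24 (adjusted p = 0.0894), and without day 14 replicate 5 the day 14 value was 1.84 (adjusted p = 0.0516). At day 7 it was called only without day 7 replicate 3 among the single libraries (1.57, adjusted p = 0.049). With a pseudocount of 1 neither day 3 nor day 14 was called (limma adjusted p = 0.0698 and 0.0946). The exact permutation test gave p = 0.00794 at day 3, the smallest it can give, and 0.0159 without replicate 5.

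Gzma encodes granzyme A. It had 1, 0, 0, 9 and 10 reads in uninjured muscle, 11, 13, 9, 32 and 44 at day 3, and between 0 and 100 at day 7. Day 14 gave 7 to 34 reads, and day 21 gave 7, 7, 10, 0 and 1. The mean FPKM of 0.296 ± 0.373 (n = 5) in uninjured muscle stood beside 1.02 ± 0.703, 1.35 ± 1.58 and 1.09 ± 0.531 at days 3, 7 and 14 (n = 5, 6 and 6). Gzma was called at day 14 (log2 fold change 2.09 ± 0.74, limma adjusted p = 0.0454), where 4 of 6 libraries lay above the highest uninjured value. That call was lost (adjusted p = 0.0508 to 0.123) when any 1 of these libraries was left out, namely uninjured replicates 1, 2 and 3, day 3 replicates 1 and 2, day 7 replicate 2, day 14 replicates 1 to 5 and day 21 replicate 1. At day 3 (1.89 ± 0.78, adjusted p = 0.0527) and day 7 (1.71 ± 0.74, adjusted p = 0.084) it was not called. At day 3 it passed the threshold when 1 of uninjured replicates 4 and 5, day 3 replicate 3, day 7 replicates 4 and 6 and day 21 replicate 4 was left out, with adjusted p from 0.0242 to 0.046. At day 7 it passed without uninjured replicate 4 or 5 (adjusted p = 0.0449 and 0.0494) or day 7 replicate 6 (0.00956).

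Between day 14 and day 21, Gzma and Gzmb were the 2 members with an unadjusted p under 0.05 in the limma fit, and no gene of 16362 passed the adjusted threshold (0.00%). The exact permutation test of mean FPKM gave p = 0.00866 for Gzma and 0.026 for Gzmb, unadjusted over the 70 such tests that were made. For Gzma, 4 of 5 day 21 libraries lay below the lowest day 14 library. Between day 3 and day 7 (0.0183% of genes called) and between day 7 and day 14 (0.122%, of which 0.0489% higher and 0.0733% lower), no member was called and none had an unadjusted p under 0.05 in that fit.

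Il2rb, the beta chain of the interleukin-2 and interleukin-15 receptors, had 0, 0, 4, 0 and 0 reads in uninjured muscle. It had 11, 4, 38, 29 and 145 reads at day 3, and between 0 and 130 at day 7. Day 14 gave 2 to 40 reads, and day 21 gave 9, 14, 6, 0 and 14. The mean FPKM was 0.0159 ± 0.0356 (n = 5) in uninjured muscle and 0.480 ± 0.631 (n = 5), 0.367 ± 0.498 (n = 6), 0.231 ± 0.189 (n = 6) and 0.149 ± 0.119 (n = 5) at days 3, 7, 14 and 21. In each of these groups 4 libraries lay above the highest uninjured value. Il2rb was called at day 3 only (log2 fold change 1.83 ± 0.63, limma adjusted p = 0.0215), and without day 3 replicate 5 the value was 1.31 (adjusted p = 0.0869). The values of days 7, 14 and 21 were 1.44 ± 0.60, 1.35 ± 0.60 and 0.99 ± 0.63 (adjusted p = 0.0721, 0.111 and 0.39). The day 7 value passed the threshold without day 3 replicate 5 (adjusted p = 0.0483), day 7 replicate 3 (0.0252) or day 7 replicate 6 (0.0263). The exact permutation p was 0.0159, 0.0909, 0.013 and 0.0476 at the 4 days, unadjusted.

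Nkg7, a membrane protein of cytotoxic granules, had 0, 0, 2, 7 and 3 reads in uninjured muscle and 15, 8, 10, 9 and 105 at day 3. At day 7 it ranged from 0 to 96, at day 14 from 0 to 25, and at day 21 it had 8, 6, 4, 25 and 0 reads. It was not called at any day (adjusted p = 0.0756, 0.366, 0.228 and 0.563), with log2 fold changes of 2.06 ± 0.92 at day 3 and 1.51 ± 0.88 at day 14. The day 3 value passed the threshold when uninjured replicate 4 or day 7 replicate 4 was left out (adjusted p = 0.046 and 0.0479). Without day 3 replicate 5 its mean FPKM at day 3 went from 1.51 ± 2.18 (n = 5) to 0.542 ± 0.171 (n = 4). The exact permutation p was 0.0317, 0.329, 0.0563 and 0.294 at the 4 days, unadjusted, and 0.0635 at day 3 without replicate 5.

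Leaving out day 7 replicates 3 and 6, a choice made after seeing the data, gave 4 members called at day 7 in place of 1. These were Cd4 (log2 fold change 2.93), Gzma (2.70, adjusted p = 0.00291), Gzmb (1.96, 0.0137) and Il2rb (2.25, 0.00338, limma). The share of all genes called in that fit is not given here, so the count is not set against it. Genes outside the members gained calls too. Of the 4 muscle fibre genes listed, Ckm, Myh4 and Tnnt3 were called lower at day 7 (limma adjusted p = 0.00891, 0.00243 and 0.0115), and Acta1 was not. With all libraries none of them was called at day 7. In replicate 6 no read of Nkg7, Gzma, Gzmb, Il2rb, Cd79a or Cd8a was found, and in replicate 3 no read of Gzmb, Il2rb or Cd79a. Leaving out day 3 replicate 5 and day 7 replicate 5 together left only Cd4 called at day 3 (2.21 ± 0.58, adjusted p = 0.00382).

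The 2 libraries richest in cytotoxic genes were day 3 replicate 5 and day 7 replicate 4. Day 3 replicate 5 held 105 reads of Nkg7, 44 of Gzma, 53 of Gzmb, 145 of Il2rb, 35 of Cd8a and 34 of Cd3g. The same library had 127 reads of the T cell receptor beta gene Trbc1, where the other day 3 libraries had 1 to 5, and 37 reads of Cd8b1 and of Cd3d. Day 7 replicate 4 held 96 reads of Nkg7, 100 of Gzma, 130 of Il2rb and 118 of Cd4, with 25 of Gzmb, 12 of Cd8a and 41 of Cd3e. These 2 libraries had 18708236 and 16483907 reads in all, and the median over all libraries was 17398586.

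Across the 27 libraries, Gzmb varied with Il2rb (Pearson r = 0.671 on log2(FPKM + 0.1), a description over libraries that share the injury course), with Gzma (r = 0.649) and with Nkg7 (r = 0.645). After removing group means these were 0.597, 0.447 and 0.608. Compared with the other members, Ptprc, Lyz2 and Cd3d only, Cd4 had its highest r with the pan-leukocyte gene Ptprc (r = 0.788, 0.529 within groups), Il2rb (0.770) and Lyz2 (0.745), beside 0.175 with Cd3g, 0.144 with Cd3d and -0.144 with Cd3e. Day 3 replicates 1 to 4 had 7 to 59 reads of Cd4 with 0 to 11 of Cd3g and 0 to 2 of Cd3d. For Cd3e, r was highest with Cd3g among the same genes (0.468, 0.528 within groups), and it was 0.227 with Cd8a and -0.187 with Ptprc. The 5 genes most alike to Cd3e among 16361 others were Rflna (0.721), Ptpru (0.697), Nov (0.673), Igfbp6 (0.662) and Trnp1 (0.662), none of which is on the T cell lists used here. For Cd79a they were Gm38910 (0.807), D130017N08Rik (0.685), Gm16181 (0.682), Akap7 (0.679) and Phactr1 (0.675), and for Nkg7 they were Lpar4 (0.734), Rpgrip1l (0.680), Gimap3 (0.679), Ppil2 (0.674) and Myf5 (0.664). In genes with so few reads, weak correlations carry no finding.

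Ptprc encodes CD45, the surface phosphatase of all leukocytes, and its mean FPKM was 0.0539 ± 0.0251 (n = 5) in uninjured muscle, and 1.31 ± 0.448, 0.757 ± 0.764, 0.292 ± 0.146 and 0.15 ± 0.0536 at days 3, 7, 14 and 21. It was called at days 3, 7 and 14, the last not with quantile normalization (adjusted p = 0.115) (log2 fold change 3.14 ± 0.40, 2.11 ± 0.38 and 1.28 ± 0.38, limma). For Cd3e and Cd79a, the 2 members with reads in every uninjured library, the level relative to Ptprc is given as log2 of the ratio of FPKM + 0.1, as a description with no test. These members were kept for their uninjured reads, and the mean uninjured Ptprc level is below the pseudocount, so the ratio carries the rise of Ptprc and depends on the value added. Cd3e over Ptprc was 1.03 ± 0.969 (SD, n = 5) in uninjured muscle and -2.63 ± 1.30 (n = 5) at day 3. Cd79a over Ptprc was 2.15 ± 0.691 in uninjured muscle, -1.23 ± 0.998 at day 3, -1.24 ± 1.33 (n = 6) at day 7 and 2.37 ± 0.669 (n = 5) at day 21. The day 3 libraries lay below the uninjured ones for both genes, as did the day 7 libraries for Cd79a. At day 7 the ratio of Cd3e spread from -3.51 to 2.09, with the highest values in replicates 3 and 6. The mean differences from uninjured at day 14, -1.23 for Cd3e and -1.60 for Cd79a, came to -0.27 for each with a pseudocount of 1.

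**Figure D4:**
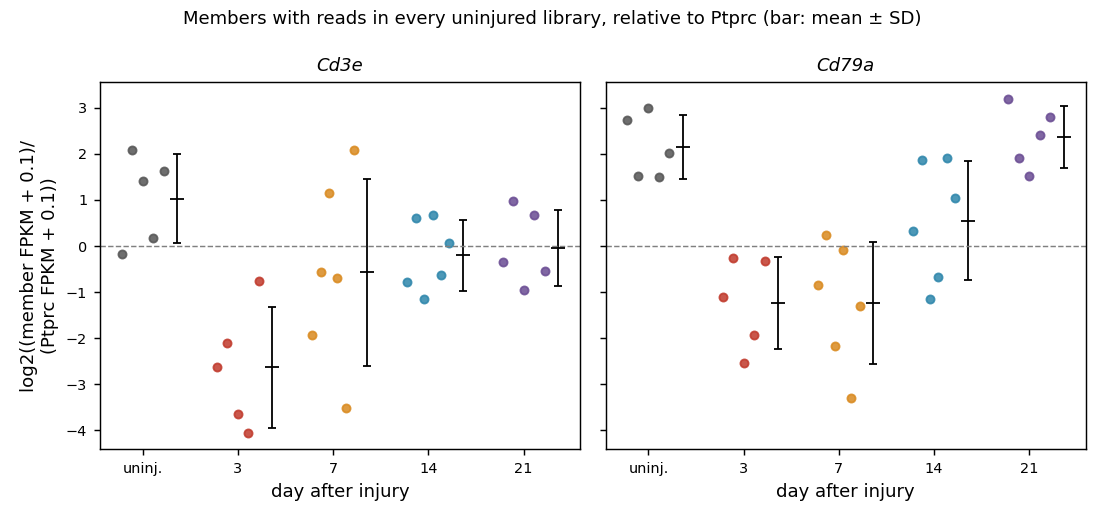
Log2 ratio of Cd3e (left) and Cd79a (right) to Ptprc in each library, computed from FPKM + 0.1, with the mean and SD of each group as a bar. The dashed line marks equal values. All day 3 libraries lie below all uninjured libraries for both genes, and Cd79a at day 21 lies between 1.52 and 3.19, a range that overlaps that of uninjured muscle.

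Other genes of the same cells were read from lists chosen with earlier results of these data known, and their counts stand beside 23.8%, 16.4%, 11.2% and 2.34% of all tested genes called higher at days 3, 7, 14 and 21. Of the 16 genes of the T cell receptor complex and its proximal signalling, 11 entered the fit. At day 3, Lck and Cd28 rose and Cd247 fell, at day 7 Cd28 rose, and at day 14 Cd28, Zap70 and Trbc1 rose, while none was called at day 21 (3 at an unadjusted p under 0.05 by limma). These genes outside the naming rule were chosen after their values were seen. Lck at day 3 was not called without replicate 5 of that day (log2 fold change 1.12, limma adjusted p = 0.0951), and with quantile normalization neither Cd28 at days 3, 7 and 14 nor Trbc1 at day 14 was called (adjusted p = 0.249, 0.0987, 0.13 and 0.0713). Trbc1, a constant segment of the receptor beta chain, had a mean FPKM of 0.323 ± 0.378 (n = 5) in uninjured muscle and 1.72 ± 1.20 (n = 6) at day 14 (log2 fold change 2.42 ± 0.80, adjusted p = 0.0318). Trbc1 and Trbc2 are near-identical, so reads can be split between them. Trbc2 was not called at any day (log2 fold change 1.08 at day 14, limma adjusted p = 0.469). Trac, the alpha chain constant segment, also named after its values were seen, was not called either (0.21 at day 14, adjusted p = 0.688 to 0.953 over the days). Cd247, the CD3 zeta chain, was at a mean FPKM of 0.955 ± 0.208 in uninjured muscle, above every member, and at 0.525 ± 0.462 at day 3 (log2 fold change -0.96 ± 0.37, adjusted p = 0.0417, but -0.28 and 0.524 with TPM).

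Of 17 genes of T cell subsets and state, 13 entered the fit, and 5, 5, 4 and 0 were higher at days 3, 7, 14 and 21. Tcf7, a transcription factor of naive and memory T cells, rose at day 3 (mean FPKM 1.17 ± 0.350 against 0.208 ± 0.101, log2 fold change 2.05 ± 0.37, adjusted p = 9.84e-05), day 7 and day 14, the last 2 not called with quantile normalization (adjusted p = 0.101 and 0.168). Tnfrsf4, a co-stimulatory receptor, was not called at any day (adjusted p = 0.515 to 0.903).

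The gamma-delta T cell list had 2 of 7 genes in the fit. Trdc, the constant segment of the receptor delta chain, had 3 to 9 reads in uninjured libraries, 250, 86, 4, 297, 0 and 0 at day 7 and 20 to 81 at day 14. Its log2 fold change was 1.18 ± 0.71 at day 7 (adjusted p = 0.218) and 1.74 ± 0.71 at day 14 (adjusted p = 0.0793), and it was not called. The 2 day 7 libraries with the most Trdc, replicates 1 and 4, were also those with the most reads of Nkg7, Gzma and Cd4 at that day. Tcrg-C2, a gamma chain segment, was at 0 in uninjured muscle and had 36 reads at day 3, of which 31 were in replicate 5, and 26 at day 14. Sox13 rose at day 14 (log2 fold change 0.64 ± 0.22, adjusted p = 0.0363, and 0.0793 with quantile normalization) from a mean FPKM of 2.98 ± 0.414 in uninjured muscle. It had 144 to 232 reads in the uninjured libraries, where Trdc had 3 to 9 and Tcrg-C2 was at 0. Which cells gave the Sox13 reads was not tested.

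Of 21 further NK and cytotoxic genes, 10 entered the fit, and 3, 4, 3 and 0 rose at days 3, 7, 14 and 21 with none lower, where 23.8%, 16.4%, 11.2% and 2.34% of all tested genes were called higher. Without day 3 replicate 5 the day 3 count was 2, and without day 7 replicates 3 and 6 the day 7 count was 7. The shares of all genes called in those fits are not given here, so these counts are not set against them. With all libraries, Prf1 (perforin), Tbx21 and Klrb1c, named after their values were seen, were not called at any day. The log2 fold change of Prf1 was 0.51, 0.29, -0.24 and 0.03 at days 3, 7, 14 and 21 (limma adjusted p = 0.493 to 0.985). Klrd1, the CD94 chain of NK receptors, was at 0 in all uninjured libraries. It had 25, 6, 47, 13 and 34 reads at day 3, and between 0 and 52 at day 7. Day 14 gave 0 to 31 reads, and day 21 gave 2, 5, 2, 4 and 0. It was at least 25.4-fold, 24.9-fold and 17.3-fold higher at days 3, 7 and 14, with limma adjusted p of 0.000479, 0.00207 and 0.00819. At day 21 Klrd1 was not called (log2 fold change 1.10 ± 0.65, limma adjusted p = 0.347). Its bound there was 4.06-fold, and 2.91-fold without day 21 replicate 2. Ccl5, a chemokine of activated T and NK cells, rose from a mean FPKM of 0.398 ± 0.379 to 6.02 ± 8.23, 4.79 ± 6.19 and 3.49 ± 2.21 at days 3, 7 and 14 (adjusted p = 0.00711, 0.0129 and 0.0113). Its highest values, 418 and 369 reads, were in day 3 replicate 5 and day 7 replicate 4, the libraries richest in the members. Without each of them the mean FPKM of Ccl5 was 2.41 ± 1.85 (n = 4) at day 3 and 2.35 ± 1.81 (n = 5) at day 7. Ctsw, a protease of cytotoxic cells, rose at day 3 and day 14 (log2 fold change 2.45 ± 0.82 and 2.49 ± 0.79, adjusted p = 0.0184 and 0.0258). Ctsw at day 3 without replicate 5 of that day was 2.03 ± 0.85 (limma adjusted p = 0.0597), and quantile normalization gave an adjusted p of 0.0564 at day 14.

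**Figure D5:**
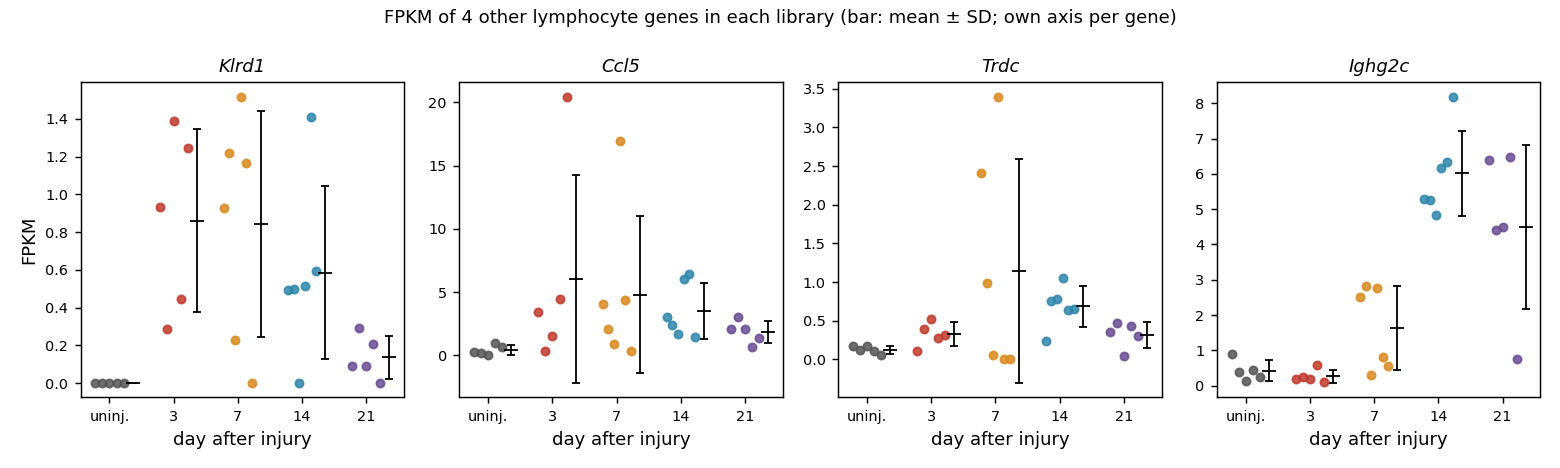
FPKM of Klrd1, Ccl5, Trdc and Ighg2c in each library (points, by group), with the mean and SD of the group as a bar and a vertical axis for each gene. Klrd1 is at 0 in uninjured muscle, Trdc is highest in 2 day 7 libraries, and all 6 day 14 values of Ighg2c lie between 4.83 and 8.19, above every uninjured value.

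The partners of Il2rb in the receptor for interleukin-2 and interleukin-15 gave 2 genes higher and 3 lower of 9 in the fit at day 3. Il2rg, the common gamma chain, was named after its values were seen and rose at days 3, 7 and 14 (log2 fold change 3.05 ± 0.48, 1.66 ± 0.46 and 1.72 ± 0.46, adjusted p = 2.34e-05, 0.00893 and 0.0104). Its mean FPKM in uninjured muscle was 0.823 ± 0.533, beside 0.0159 ± 0.0356 for Il2rb. Jak1 (-0.48 ± 0.14) and Stat5b (-1.32 ± 0.17), which carry the signal of the receptor and are expressed in most cells, fell at day 3 on the deposited scale, as did Il15ra (-0.97 ± 0.34). With TPM none of the 3 was called, and Jak1 turned to 0.35 (Stat5b -0.50, Il15ra -0.18).

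In the B cell list, 10 of 15 genes entered the fit, and 2, 1, 1 and 0 rose at days 3, 7, 14 and 21. Cd79b, the partner chain of Cd79a, rose at day 3 (log2 fold change 1.41 ± 0.38, adjusted p = 0.00423), where Cd79a was at -0.24 ± 0.65 (adjusted p = 0.799, and 0.48 with values rescaled to TPM). Ighm, the IgM heavy chain, fell from a mean FPKM of 27.04 ± 6.01 in uninjured muscle to 11.6 ± 3.61 at day 3 and 11.4 ± 6.67 at day 7 (adjusted p = 0.0136 and 0.00688). With TPM neither day was called for Ighm (adjusted p = 0.47 and 0.202). Igkc, the kappa light chain, rose at day 14 (log2 fold change 2.82 ± 0.93, adjusted p = 0.0316), with 871 and 551 reads in replicates 5 and 1 and 19 to 45 in the other 4. Those 2 libraries also held the most Jchain (98 and 169 reads) and the most Ms4a1 (23 and 15 reads) of day 14.

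Plasma cells, which secrete antibody, gave 0, 1, 2 and 1 genes higher of 4 in the fit at days 3, 7, 14 and 21. Ighg2c, an IgG heavy chain, had 2 to 16 reads in uninjured muscle and 3 to 18 at day 3. Day 7 gave 7 to 89 reads and day 14 120 to 162, and day 21 gave 143, 78, 100, 129 and 11. All 6 day 14 libraries lay above all uninjured ones, and 4 of 5 day 21 libraries did. The log2 fold change was 1.5 ± 0.52, 3.70 ± 0.52 and 3.02 ± 0.54 at days 7, 14 and 21 (adjusted p = 0.0315, 6.95e-05 and 0.00258, limma), and with quantile normalization the day 7 value was 1.11 (adjusted p = 0.118). Ighg2c was thus called at day 21, when no member was. Mzb1, a chaperone of antibody-secreting cells, rose at day 14 (1.46 ± 0.37, adjusted p = 0.00796). Jchain and Igha, on the same list, were not called at any day (limma adjusted p = 0.0869 and 0.0592 at day 14). Day 14 replicate 6 had 128 reads of Ighg2c and 0 of Jchain and of Igha. Whether Ighg2c reads came from plasma cells was not tested.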

How the data were processed

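Poly(A) RNA of 27 tibialis anterior muscles was sequenced from libraries that do not keep strand. The authors aligned reads with HISAT2 2.0.5, counted them per gene with featureCounts 1.5.0-p3 and deposited FPKM for 54532 genes, per the submitters' processing notes. The genome build is not given in the sources used here, but 98.3% of the 54495 genes found in GENCODE M21 (GRCm38) had the same coordinates. FPKM times gene length gave whole reads (within 0.05) for 100% of values above 0. The deposited FPKM carry a scaling between samples, with denominators 0.747 to 1.48 times the library's own total. This scaling differed between the groups. The mean ratio was 0.782 in uninjured muscle and 1.247, 1.175, 1.045 and 0.897 at days 3, 7, 14 and 21. Fold changes against uninjured muscle on the deposited scale therefore carry it. Depth was 14376395 to 24436763 reads per library. Floors of 3 reads cover counting error only.

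Groups came from sample titles. Genes with at least 10 reads in at least 5 samples (16362) were fitted as log2(FPKM + 0.1) with limma 3.58.1 in R 4.3.3, 1 mean per group over all 27 samples, a variance trend, two-sided tests and Benjamini-Hochberg adjustment over all tested genes at 0.05. A fold change on this scale understates that of low genes. Single members were compared by two-sided exact permutation tests of mean FPKM, whose p-values are unadjusted (smallest possible 0.00794 for 5 against 5 samples, 0.00433 for 5 against 6 and 0.00216 for 6 against 6). The ratio to Ptprc was kept, after seeing the data, to the 2 members with reads in every uninjured library, and is given as a description, since the pseudocount exceeds the mean uninjured Ptprc level.

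The 10 members and all lists were chosen with earlier results of these data known. Named genes are the members, Ptprc, the 3 genes of each list with the highest mean FPKM, and the 5 genes most alike to Cd3e, Cd79a and Nkg7, and others are marked where they appear or are named for their relation to a result. Ccl21a, listed in 2 rows, was not used. A gene that the rule names in the list of T cell subsets and state, and the count of lower genes in that list, are not reported here. The remaining lists gave the following. The pan-leukocyte list had 5, 5, 3 and 0 of 6 genes higher at days 3, 7, 14 and 21. The neutrophil list had 3, 2, 0 and 0 of 4 higher and 0, 0, 1 and 0 lower, the dendritic cell list 2, 2, 1 and 0 of 7 higher, the blood list 1, 1, 0 and 0 of 4 higher, and the mast cell list 1 of 5 lower at day 14. On the muscle fibre list, Ckm, Myh4 and Tnnt3 were lower at day 3 (limma adjusted p = 0.00279, 0.00154 and 0.0125) and Ckm at day 14 (0.0286). Acta1 was not called at any day. With quantile normalization, of these only Myh4 at day 3 was called (adjusted p = 0.0343). The fit and the permutation test were tested on simulated data. Python 3.11.15, pandas 2.3.3, numpy 2.4.6 and matplotlib 3.10.9 were used. Alternatives changed the pseudocount, filter, scaling, variance trend, weights, replicate block and the samples included.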

Additional observations from a re-analysis of the deposited data

Results flagged for a closer look

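In 14 of the 48 groups of member values that could be examined, 1 library stood farther from the others than a Dixon test at the 95% level allows, a limit that flags about 1 in 20 groups by chance where values are normally distributed. These values are mostly a few reads, so that rate need not hold here. Day 3 replicate 5 gave 4 of these, each the highest of its group, with FPKM of 0.452 for Cd8a, 5.40 for Nkg7, 1.73 for Gzmb and 1.59 for Il2rb. Day 7 replicate 4 gave 3, with 4.64 for Nkg7, 4.39 for Gzma and 1.34 for Il2rb. The other high libraries were day 14 replicate 5 for Cd3g (0.625), day 21 replicate 2 for Cd3e (0.460), day 21 replicate 4 for Nkg7 (1.82) and day 21 replicate 1 for Gzmb (0.0825, the only library of that day above 0). In uninjured muscle they were replicate 5 for Cd3g (0.146), replicate 4 for Cd8a (0.0223) and replicate 3 for Il2rb (0.0795), each the only library above 0 in its group. For these 3 and for Gzmb at day 21, the other libraries being at 0 fixed the result. The cause was not tested.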

How the results depend on the processing

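With 3 members called at day 3, a pseudocount of 1, quantile normalization and leaving out day 3 replicate 5 with day 7 replicate 5 each gave 1. A filter of FPKM at least 0.5 in 5 samples, with either pseudocount, gave 0 of the 3 members it tests. TPM, the own read total, the replicate block by number and fits of only 2 groups each gave 5. Over all tested genes at day 3, TPM called 7783 higher and 307 lower, and the own read total 7326 and 617. Quantile normalization called 3004 higher and 4081 lower, and the deposited scale 3901 and 2865. With 1 called at day 7, the FPKM filter gave 0 with either pseudocount, quantile normalization 2 (Cd79a lower among them), TPM 4, the own read total 3, the replicate block by number or letter 3, and leaving out day 7 replicates 3 and 6 gave 4. With 2 called at day 14, pseudocounts of 1 and 0.5, quantile normalization, voom weights and the FPKM filter with a pseudocount of 1 gave 0, no filter and the FPKM filter gave 1, the replicate block by number or letter gave 4 and fits of 2 groups 5. Over all tested genes at day 14, quantile normalization called 1194 higher and 1237 lower, and the deposited scale 1826 and 1607. For alternatives other than scalings the calls over all genes are not given here. A changed count of members is therefore not a result about the members. Between consecutive days the pairs of libraries left out gave 1 member each in place of 0 at day 7 against day 3 and at day 14 against day 7. These members were Cd3e and Cd4, and the libraries left out held extreme values of each, so both calls are descriptions only. With each library left out in turn, the day 3 counts ranged from 1 to 5, those of day 7 from 1 to 3 and those of day 14 from 0 to 3. The Cd8a value at day 3 ranged from -0.0224 to 0.594 in these fits. At day 21 no alternative called a member. The alternative without day 7 replicates 3 and 6 was chosen after seeing the data. Cd4 at days 3 and 7 was called under all 41 alternatives that tested it.

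The sign turned, without a call, for Cd8a at day 3 without day 3 replicate 5 (-0.0224, also with day 7 replicate 5 left out), Cd79a at day 3 with TPM (0.48) or the own read total (0.31), Cd3e at day 7 against uninjured with quantile normalization (-0.00337) or without day 7 replicates 3 and 6 (-0.0905), Cd3e at day 14 against uninjured with quantile normalization (-0.36), voom (-0.35), the replicate block by number (-0.0843) or letter (-0.0512) and single libraries left out (-0.25 to 0.39), and Cd79a at day 14 with a pseudocount of 1 (0.0186, with or without the FPKM filter), the own read total (0.0301) or single libraries left out (-0.72 to 0.17).

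The median of all genes moved to 0.82, 0.76, 0.50 and 0.20 at days 3, 7, 14 and 21 with TPM and to 0.63, 0.56, 0.40 and 0.19 with the own read total, where 96.2% and 92.2% of day 3 calls were higher, against 57.7% as deposited and 42.4% with quantile normalization. Median-ratio scaling gave the deposited values. Replicate numbers and letters did not pair the samples (deviations of 20 and 19 pairs correlated at -0.229 to 0.0719), and 0 of them were over 0.1. Of the 270 member values, 71 were 0. Genes of the context lists were refitted, after seeing the data, with quantile normalization, TPM, the own read total and without the libraries that stand apart, and the calls of named genes that were lost are given beside them.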
